A study of Mus musculus with 24 samples.

Results

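The 37 genes described here encode the glucose transporters, the enzymes of glycolysis, the proteins that make and move lactate, the regulators of glycolytic flux, the proteins that sense oxygen and a set of genes known to respond to low oxygen. They were taken by gene symbol from the 78298 genes of each deposited count table, and each symbol matched 1 gene. Their transcripts were measured by RNA sequencing in oocytes and granulosa cells, the somatic cells that surround the oocyte, of wild-type mouse ovarian follicles held in alginate gel. The follicles were cultured to day 3 with follicle-stimulating hormone (FSH) at 50 mIU/ml in 1 of 3 media. One medium held blebbistatin at 20 µM, which blocks the motor protein myosin II. A second held dextran at 10 kPa, a polysaccharide that presses on the follicle by osmosis, and the third was control medium without either agent. Both cell types and all 3 media give 6 groups of 4 libraries, so there were 24 libraries in all.

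Follicles past 180 µm were opened mechanically, and an oocyte library held 1 to 2 oocytes while a granulosa cell library held a pool of cells. Nothing in the labels tells whether separate animals or cultures gave the 4 libraries of a group, or whether the solvent of blebbistatin was added to control medium. The p-values below therefore measure only the spread between these libraries, which may be technical. In pooled samples like these, fewer cells of a type and less RNA per cell cannot be told apart.

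Glycolysis splits glucose into pyruvate in the cytosol, and lactate dehydrogenase turns pyruvate into lactate and back. When oxygen is low, prolyl hydroxylases of the EGLN family no longer mark the alpha subunits of hypoxia-inducible factor (HIF) for destruction, and HIF raises transcription of glycolytic enzymes, of Vegfa and of many other genes. HIF-1 alpha is controlled mainly at the level of its protein, so the level of Hif1a transcript is not a measure of its activity. In mouse follicles, growing oocytes are known to use glucose poorly and to depend on pyruvate that granulosa cells supply.

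Oocyte libraries held 14244103 to 18399551 estimated counts and granulosa cell libraries 16432298 to 22431013. A level is given below as CPM, the counts divided by the library total and scaled to a fixed total. Log2 changes and fold differences come from the fit, which also applies scaling factors, so they can differ from ratios of CPM. A count of 3, taken as the floor, corresponds to 0.163 to 0.211 CPM in oocytes and 0.134 to 0.183 CPM in granulosa cells. This floor covers counting error only, since the reads carry no molecular identifiers and need not be independent molecules. The 14 oocyte markers summed to 16745 to 26691 CPM in oocyte libraries, where none was at 0, and to 3.09 to 34.1 CPM in granulosa cell libraries. The 12 granulosa cell markers summed to 60.3 to 2473 CPM in oocyte libraries and to 17215 to 33906 CPM in granulosa cell libraries, so each label fitted its markers. Among the oocyte libraries the granulosa marker Inha, a subunit of inhibin, reached 1513 CPM in control replicate 2, 283 CPM in control replicate 1 and 208 CPM in blebbistatin replicate 1, against 0.754 to 53.6 CPM in the other 9. The 8 markers of macrophages summed to 656 and 985 CPM in blebbistatin replicates 1 and 2 of the granulosa cells, against 1.38 to 10.4 CPM in the other 10 granulosa cell libraries. For many of the values that leaving these 5 libraries out changed strongly, the value without them stands beside it.

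Most of these genes were lower in oocytes than in granulosa cells. Between the cell types of control follicles, 35 of the 37 members had enough counts to be tested, and 31 of the 35 passed the threshold of 0.05 (edgeR quasi-likelihood test, Benjamini-Hochberg adjusted over 20601 genes). Of these, 26 were lower and 5 were higher in oocytes. The 26 include Hk1, Pfkfb4 and Vegfa, which failed the filter within oocytes and passed through granulosa cells, so their direction was fixed by the filter. The background is high, since 77.3% of all genes tested passed, 32.9% lower and 44.4% higher in oocytes. Where ranges of the cell types are said below not to overlap, the share of all genes for which this holds is not given. With so many genes called, such a gap does not by itself set a member apart. The median log2 change of the members was -2.59, while that of all genes was 0.41. Without the scaling factors the all-gene median was 0.06 and that of the members -2.96, so the members lay lower than the middle of all genes under either scaling. Without the 3 oocyte libraries rich in Inha the members' median was -2.94, and 31 were again called. The cell types were deposited as separate tables, so a difference in how the tables were made cannot be told apart from cell type. Eno2, an enolase of neurons, and Egln3, an oxygen-sensing prolyl hydroxylase, did not pass the filter on low counts. Eno2 was at 0 in all 12 oocyte libraries and reached at most 3.66 CPM in granulosa cells.

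The hexokinases, which phosphorylate glucose, were both lower in oocytes. Hk2 had 0.894 to 7.84 CPM over the 12 oocyte libraries and 18.9 to 124 CPM over the 12 granulosa cell libraries, and Hk1 had 0 to 2.45 CPM in oocytes and 9.38 to 36.2 CPM in granulosa cells. Neither pair of ranges overlapped. In control follicles the log2 change was -3.43 ± 0.58 for Hk2 (SE, n = 4 libraries a group, edgeR adjusted p = 2.1e-05). That of Hk1 was -4.04 ± 1.02, a description only, since its direction was fixed by the filter. The highest oocyte value of Hk1 was that of control replicate 2, the library richest in Inha. Without the 3 oocyte libraries rich in Inha the log2 change of Hk1 was -7.63, and the control oocyte libraries left lay under the floor, at 0.0616 and 0.0600 CPM.

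All 7 genes of the upper part of the pathway, from phosphoglucose isomerase to triose phosphate isomerase, were called lower in oocytes. Aldoa, the aldolase of most tissues, had 238, 265, 233 and 195 CPM in control oocytes and 1992, 1245, 2173 and 866 CPM in control granulosa cells. Every oocyte value lay under every granulosa cell value. Its log2 change was -2.39 ± 0.26 (SE, edgeR adjusted p = 5.9e-08). Pfkl and Pfkp, liver-type and platelet-type phosphofructokinase, had log2 changes of -3.06 ± 0.42 and -2.30 ± 0.34, and of -3.65 and -2.90 without the oocyte libraries rich in Inha. Both catalyse the committed step of glycolysis.

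The lower part of the pathway showed some of the widest gaps, and all 5 of its tested genes were called lower in oocytes. Gapdh, the glyceraldehyde-3-phosphate dehydrogenase often used as a reference gene, had 59.6, 126, 52.2 and 50.8 CPM in control oocytes, against 1237, 963, 1514 and 892 CPM in control granulosa cells. The mean in oocytes was 6.27% of that in granulosa cells, a 12.2-fold lower level in the fit (log2 change -3.61 ± 0.31, SE, edgeR adjusted p = 1.2e-09). Its log2 change was -4.22 without the oocyte libraries rich in Inha, which include the highest control oocyte. Eno1, the enolase of most tissues, had 329, 325, 176 and 175 CPM in control oocytes and 4559, 2740.01, 5305 and 1679 CPM in control granulosa cells. Its fitted difference was 10.9-fold (log2 change -3.45 ± 0.37, edgeR adjusted p = 4.2e-08), with a log2 change of -4.09 without those libraries. Pgk1, phosphoglycerate kinase, averaged 46.4 ± 15.2 CPM in control oocytes and 417 ± 181 CPM in control granulosa cells (SD, n = 4 each).

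Pkm, pyruvate kinase, stood apart from its neighbours in the pathway. It had 801, 829.9, 773 and 838 CPM in control oocytes and 2355, 1404, 2609 and 1044 CPM in control granulosa cells. Oocytes thus held 43.7% of the granulosa cell mean in CPM. With the scaling factors of the fit the gap was smaller, at a log2 change of -0.84 ± 0.26 (SE, edgeR adjusted p = 0.00683). The difference did not pass in blebbistatin follicles (-0.23 ± 0.26, edgeR adjusted p = 0.431) or in dextran follicles (-0.26 ± 0.26, edgeR adjusted p = 0.372). Whether the 3 media differ in it is a matter of the interaction, which no member passed.

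**Figure D1:**
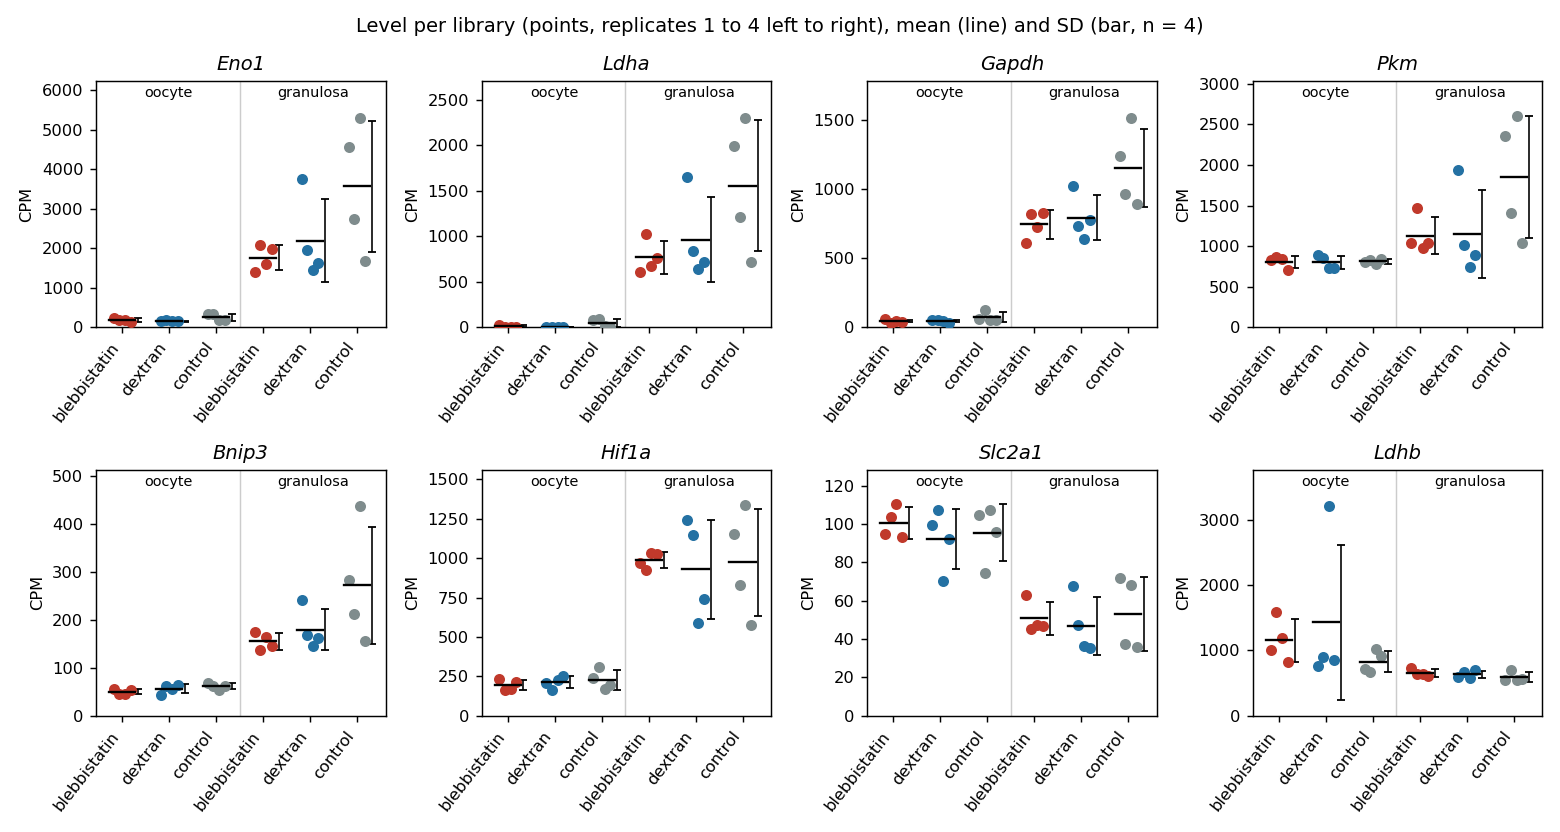
Levels of 8 members in CPM, on axes that start at 0, in each library of the 6 groups (oocytes left, granulosa cells right), with the mean and SD of the 4 libraries beside the points. Eno1, Ldha, Gapdh, Bnip3 and Hif1a lie lower in every oocyte library than in every granulosa cell library, whereas Ldhb overlaps between the cell types.

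The lactate genes split by isoenzyme. Ldha encodes the lactate dehydrogenase subunit of muscle and of glycolytic cells, and Ldhb the subunit of heart. Ldha had 24.9, 6.94, 5.38 and 0.660 CPM in blebbistatin oocytes, 6.41, 0.0643, 0.116 and 1.68 CPM in dextran oocytes and 74.3, 89.1, 10.8 and 2.34 CPM in control oocytes. In granulosa cells it had 606, 1027, 678 and 761 CPM with blebbistatin, 1657, 839, 638 and 719 CPM with dextran and 1989.6, 1213, 2304 and 722 CPM in control medium. The lowest granulosa cell library thus held more Ldha than the highest oocyte library. The control oocyte mean was 2.83% of the control granulosa cell mean, and the fitted log2 change was -4.72 ± 1.09 (SE, edgeR adjusted p = 0.000593).

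Ldhb had 676 to 3209 CPM over the 12 oocyte libraries and 544 to 736 CPM over the 12 granulosa cell libraries. Its ranges overlapped, and control oocytes averaged 829.7 ± 166 CPM against 591 ± 76.4 CPM in control granulosa cells (SD, n = 4 each). The fit gave a log2 change of 0.82 ± 0.32 (SE, edgeR adjusted p = 0.0255). That call was lost when libraries were scaled by their totals only (0.49, edgeR adjusted p = 0.171), so the direction held and the call did not. Counted within each library, the log2 ratio of Ldhb to Ldha counts was 2.92 to 14.43 in oocytes and -2.08 to 0.28 in granulosa cells. This ratio is not corrected for transcript length, so only its difference between libraries can be read, and it separated all 12 oocyte libraries from all 12 granulosa cell libraries. Its highest values, in dextran oocyte replicates 2 and 3, rest on Ldha under the floor (0.0643 and 0.116 CPM). The lowest oocyte values were those of the 3 libraries rich in Inha, so the spread within oocytes is poorly measured. Slc16a1, the lactate and pyruvate transporter MCT1, had 22.9 to 57.5 CPM in oocytes and 245 to 357 CPM in granulosa cells (log2 change in control follicles -2.59 ± 0.25, SE, edgeR adjusted p = 9.2e-09). The lactate exporter Slc16a3, or MCT4, had 0 to 4.21 CPM in oocytes and 0 to 94.2 CPM in granulosa cells, with a log2 change of -4.30 ± 1.47 (edgeR adjusted p = 0.0117).

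The small amount of Ldha in oocyte libraries moved with the granulosa marker Inha. Oocyte libraries held 1.41 to 29.0 Ldha counts per 100 Inha counts, with a median of 12.5, and granulosa cell libraries 4.33 to 12.4, with a median of 6.19. The 3 oocyte libraries with most Inha were also those with most Ldha. Without those 3 libraries the log2 change of Ldha between control oocytes and control granulosa cells was -7.61. Pgam1, phosphoglycerate mutase, had 6.10 to 2462 counts per 100 Inha counts in oocytes against 2.95 to 6.08 in granulosa cells, so its ratio lay above the granulosa cell range in every oocyte library. What carry-over of granulosa cell RNA adds to the oocyte levels was not tested further.

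**Figure D2:**
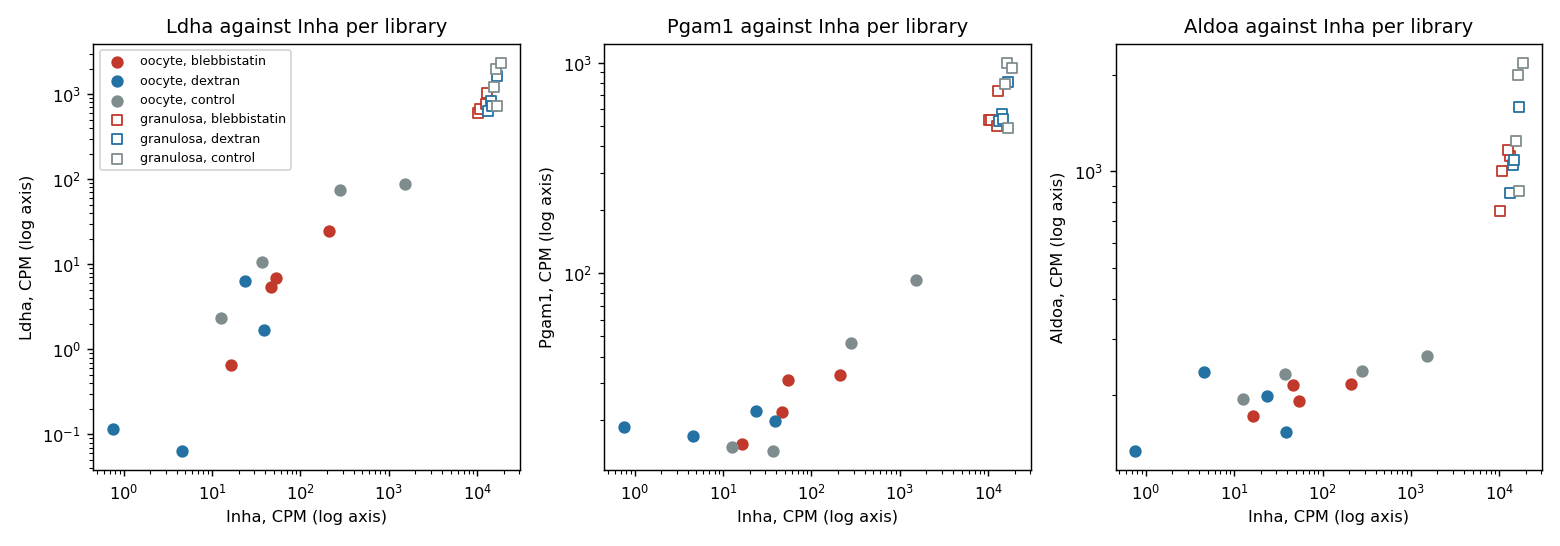
Levels of Ldha, Pgam1 and Aldoa against the granulosa marker Inha in each library, in CPM on log axes, with filled circles for oocyte libraries and open squares for granulosa cell libraries. In oocytes the lowest Ldha values stand at low Inha, while Aldoa stays between 134 and 265 CPM at every Inha level.

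Altogether 5 members were called higher in control oocytes. Slc2a1, the glucose transporter GLUT1, had 104, 74.3, 108 and 95.7 CPM in control oocytes, against 71.8, 37.3, 68.1 and 35.9 CPM in control granulosa cells. The lowest control oocyte exceeded the highest control granulosa cell library by little, and the fitted difference was 2.27-fold (log2 change 1.18 ± 0.23, SE, edgeR adjusted p = 0.000104). Ddit4, a stress-induced inhibitor of the growth kinase mTORC1, had 66.9, 86.5, 85.6 and 73.8 CPM in control oocytes and 35.0, 12.6, 26.7 and 14.4 CPM in control granulosa cells, a 4.50-fold difference (log2 change 2.17 ± 0.29, edgeR adjusted p = 1.0e-06). Egln1, the main oxygen-sensing prolyl hydroxylase that marks HIF alpha subunits, had 43.7, 53.0, 61.6 and 47.6 CPM in control oocytes and 33.0, 25.4, 31.6 and 19.8 CPM in control granulosa cells, a 2.39-fold difference (log2 change 1.26 ± 0.41, edgeR adjusted p = 0.00909). No value of Ddit4 or Egln1 in an oocyte library reached down to the granulosa cell range. Ldhb and Pdk3, a kinase that switches pyruvate dehydrogenase off, were the others, and Pdk3 changed least (0.40 ± 0.17, edgeR adjusted p = 0.0363). The call of Pdk3 was lost under 22 alternatives, among them scaling by totals, where its log2 change was 0.05.

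Hif1a and most of the called hypoxia targets were lower in oocytes. Hif1a, the oxygen-regulated subunit of HIF-1, had 163 to 307 CPM in oocytes and 576 to 1335 CPM in granulosa cells, with a log2 change of -1.73 ± 0.27 in control follicles (SE, edgeR adjusted p = 9.6e-06). Of the 9 hypoxia targets 5 were called lower in control oocytes and 1, Ddit4, higher, against 32.9% and 44.4% of all genes. The 5 include Vegfa, whose direction was fixed by the filter and whose call was lost under 3 alternatives. Bnip3, a mitochondrial protein that promotes mitophagy, had 44.4 to 68.9 CPM in oocytes and 137 to 439 CPM in granulosa cells (-1.78 ± 0.24, edgeR adjusted p = 9.0e-07). Ero1a, an oxidase of the endoplasmic reticulum, had 0.550 to 7.72 CPM in oocytes and 66.5 to 142 CPM in granulosa cells (-3.95 ± 0.44, edgeR adjusted p = 9.0e-08). The histone demethylase Kdm3a had 4.06 to 15.2 CPM in oocytes and 48.2 to 105 CPM in granulosa cells. These 3 genes were lower in each oocyte library than in any granulosa cell library, which describes them and, with so many genes called, does not set them apart. P4ha1, a collagen prolyl hydroxylase, overlapped between the cell types over all media, with 149 to 257 CPM in oocytes and 123 to 327 CPM in granulosa cells. It was not called in control follicles. In blebbistatin follicles it was called higher in oocytes, and the groups of that medium did not overlap. Vegfa, the angiogenic growth factor, lay near the floor in both, with 0 to 3.15 CPM in granulosa cells. Only 2 oocyte libraries held counts, control replicates 1 and 2 (0.0679 and 0.326 CPM), both rich in Inha. Without the oocyte libraries rich in Inha its log2 change was -7.49, with no counts left in control oocytes.

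The cell-type pattern recurred in follicles of the other media. In blebbistatin follicles 30 of 35 members passed, 24 lower and 6 higher in oocytes, against 78.9% of all genes (34.6% lower and 44.3% higher). In dextran follicles 30 passed, 25 lower and 5 higher, against 79.4% (35.4% lower and 44.0% higher). The lower members of both media include Ndrg1, which failed the filter within oocytes and passed through granulosa cells. Its direction was thus fixed by the filter, like that of Hk1, Pfkfb4 and Vegfa. All 3 comparisons called 23 members lower, against 29.4% of all genes tested, and 4 members higher, against 40.3%. The 23 again include Hk1, Pfkfb4 and Vegfa. The 4 were Slc2a1, Ldhb, Egln1 and Ddit4. Slc2a3, a second glucose transporter, and Ankrd37, a hypoxia target, were called in none.

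**Figure D3:**
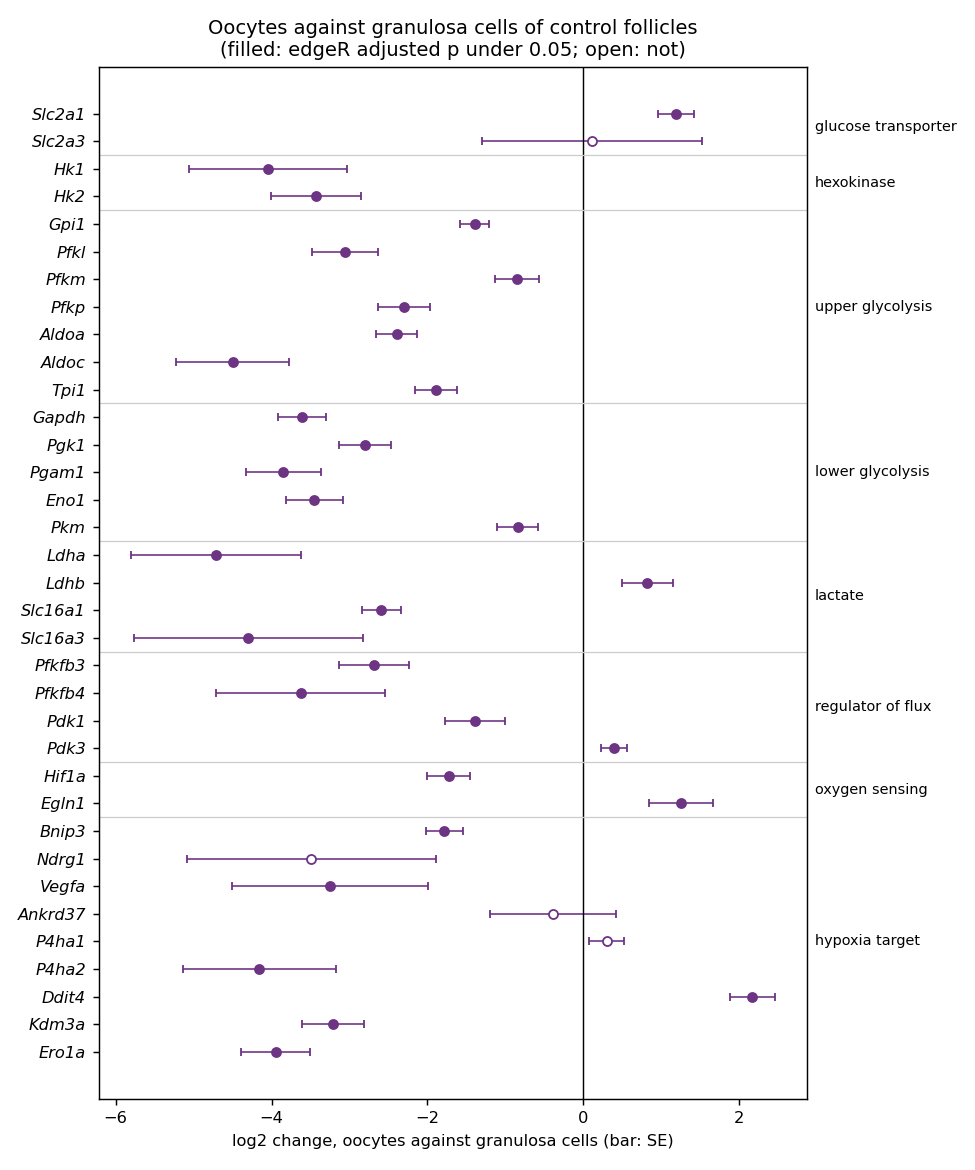
Log2 change of each tested member between oocytes and granulosa cells of control follicles, with its SE, ordered by role, filled where the adjusted p is under 0.05. The 26 members called lower lie left of 0 in every step of glycolysis, and the 5 called higher are Slc2a1, Ldhb, Pdk3, Egln1 and Ddit4.

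Isoenzyme choice also differed within other steps. The log2 ratio of Pfkm, muscle-type phosphofructokinase, to Pfkl was -1.24 to 0.07 in oocytes and -3.44 to -1.73 in granulosa cells. The ratio of Aldoc, brain-type aldolase, to Aldoa was -12.18 to -7.02 in oocytes and -6.97 to -5.25 in granulosa cells. For the collagen prolyl hydroxylases the ratio of P4ha2 to P4ha1 was -12.70 to -5.41 in oocytes and -4.63 to -2.49 in granulosa cells. None of these 3 pairs of ranges overlapped, while those of the other 7 of the 11 pairs examined did. A pseudocount of 0.5 was added to each count, and very low values of Aldoc and P4ha2 in oocytes rest on libraries with no or few counts.

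In granulosa cells no member passed the threshold for either treatment. For blebbistatin against control 35 members were tested and 0 were called by edgeR, DESeq2 or limma voom, where edgeR called 0.00651% of all genes. For 9 members edgeR gave an unadjusted p under 0.05, all lower with blebbistatin, against 5.06% of all genes lower at that level. Of the 35 log2 changes 28 were negative, with a median of -0.60, while 54.6% of all genes had a negative change and their median was -0.05. These counts describe the members, which share the same 12 libraries. The number at an unadjusted p under 0.05 was 2 without control replicate 3, 4 without control replicate 1, 6 without blebbistatin replicate 3, 14 without dextran replicate 1 and 15 without control replicate 4. Shares of all genes under the same omissions are not given, so these numbers show dependence on single libraries and cannot be set against a background.

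Gapdh was the member of smallest p. It had 606, 819, 723 and 828 CPM with blebbistatin, 1017, 732, 638 and 778 CPM with dextran and 1237, 963, 1514 and 892 CPM in control granulosa cells. The blebbistatin values all lay under the control values, which was so for no other member and for 4.74% of all genes in that direction, while the dextran values overlapped both. The log2 change was -0.60 ± 0.19 for blebbistatin (SE, edgeR adjusted p = 0.275) and -0.51 ± 0.19 for dextran (edgeR adjusted p = 1.0).

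Eno1 showed how much the libraries of a group differed. It had 1403, 2086, 1587 and 1978 CPM with blebbistatin, 3744, 1953, 1439.99 and 1634 CPM with dextran and 4559, 2740.01, 5305 and 1679 CPM in control granulosa cells. Control replicates 1 and 3 and dextran replicate 1 stood high, and control replicate 4 lay among the treated libraries. The log2 change for blebbistatin was -0.99 ± 0.36 (SE, edgeR adjusted p = 0.367), and that of Ldha was -0.99 ± 0.37 (edgeR adjusted p = 0.376). Aldoc had 5.98, 15.5, 8.88 and 14.2 CPM with blebbistatin, 29.5, 14.3, 10.1 and 11.9 CPM with dextran and 33.9, 29.6, 57.0 and 12.04 CPM in control granulosa cells (blebbistatin -1.54 ± 0.49, edgeR adjusted p = 0.280). Pgk1 had 212, 277, 205 and 222 CPM with blebbistatin, 406, 234, 178 and 190.2 CPM with dextran and 495, 343, 623 and 208 CPM in control granulosa cells. Control replicate 4 lay among the blebbistatin values, and dextran replicate 1 exceeded control replicates 2 and 4. The log2 change of Pgk1 was -0.84 ± 0.33 for blebbistatin and -0.69 ± 0.32 for dextran.

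Among the hypoxia targets Bnip3 had 176, 137, 165 and 145 CPM with blebbistatin, 241, 169, 145 and 163 CPM with dextran and 283, 212, 439 and 157 CPM in control granulosa cells. Again control replicates 1 and 3 were highest and dextran replicate 1 next. Its log2 change was -0.78 ± 0.27 for blebbistatin (SE, edgeR adjusted p = 0.326) and -0.57 ± 0.27 for dextran. Hif1a itself had 967, 923, 1034 and 1026 CPM with blebbistatin, 1242, 1147, 587 and 740.2 CPM with dextran and 1153, 827, 1335 and 576 CPM in control granulosa cells, and its log2 change for blebbistatin was 0.05 ± 0.27. All treated values of Hif1a lay within the control range. The hexokinase Hk2 had a positive log2 change, with 124, 51.5, 44.7 and 25.8 CPM with blebbistatin and 41.0, 37.6, 40.2 and 18.9 CPM in control granulosa cells (0.86 ± 0.41, edgeR adjusted p = 0.505). The values of 124 and 51.5 CPM were those of blebbistatin replicates 1 and 2, which held macrophage transcripts. The other blebbistatin values of Hk2 lay near or within the control range, and its change without those replicates is not given.

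Dextran against control gave 0 called members in granulosa cells by edgeR, DESeq2 and limma voom, with 0.0% of all genes called by edgeR. Negative log2 changes were found for 30 of the 35, with a median of -0.35, against 50.5% of all genes with a median of -0.00. Gapdh alone had an unadjusted p under 0.05, against 3.4% of all genes. That number was 0 without control replicate 3 or dextran replicate 3, 3 without control replicate 2 or blebbistatin replicate 1, 14 without control replicate 4 and 15 without dextran replicate 1. Here too the shares of all genes under these omissions are not given. Both treatments were set against the same 4 control libraries, so their changes are not independent of each other. Blebbistatin against dextran gave 0 called members as well, with a median of -0.10 that turned to 0.09 without dextran replicate 1, and Hk2 was the only member with an unadjusted p under 0.05 (0.99 ± 0.41, SE, edgeR adjusted p = 0.519). The highest blebbistatin values of Hk2 were again those of the replicates with macrophage transcripts.

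**Figure D4:**
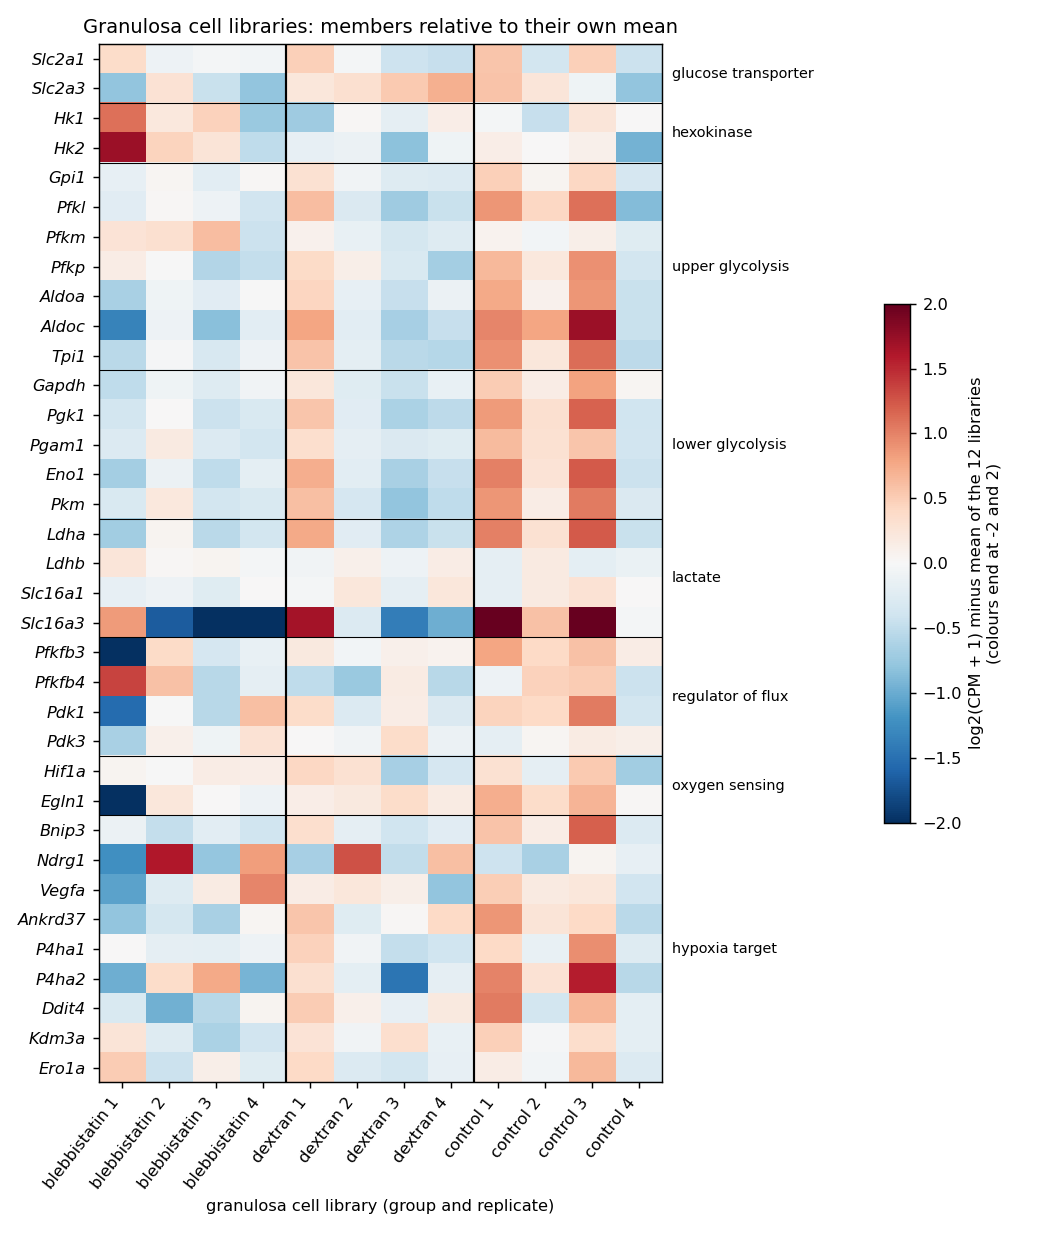
Level of 35 members (rows, by role) in the 12 granulosa cell libraries (columns, blebbistatin, dextran and control), as log2(CPM + 1) minus the member's mean over the 12, with colours ending at -2 and 2. Control replicates 1 and 3 and dextran replicate 1 are high across most glycolytic rows, and control replicate 4 is not.

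Many members shared an order of libraries. This order was noticed in the members themselves, so its count among them describes them and is not independent of that choice. Control replicates 1 and 3 and dextran replicate 1 were the 3 highest of the 12 granulosa cell libraries for 18 of the 35 members, or 51.4%, against 1.44% of the 15370 genes tested. The 15 glycolytic enzymes from hexokinase to pyruvate kinase together took 1.35%, 0.88%, 1.52% and 0.59% of the counts in control replicates 1 to 4. Their share was 0.56% to 0.76% with blebbistatin and 0.52% to 1.10% with dextran. Leaving out single libraries moved the medians accordingly. Without control replicate 3 the median log2 change of the members was -0.37 for blebbistatin and -0.18 for dextran, and without control replicate 4 it was -0.78 and -0.54. In none of these was a member called.

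Other measures of the libraries varied as well. Genes detected in granulosa cells numbered 14538 to 21042 with blebbistatin, fewest in replicate 1, 21576 to 22485 with dextran and 20730 to 24297 in control libraries. The granulosa cell markers summed to 17215, 21646, 19447 and 22413 CPM with blebbistatin, to 28674, 25796, 23321 and 25016 CPM with dextran and to 28892, 25802, 33906 and 28255 CPM in control granulosa cells, so the same 3 libraries were highest. Mitochondrial transcripts made up 7.55%, 3.86%, 9.53% and 6.09% of counts with blebbistatin, 3.41% to 4.82% with dextran and 2.60% to 4.52% in control libraries. Markers of stroma, theca and smooth muscle summed to 410 to 1630 CPM with blebbistatin, 23.5 to 381 CPM with dextran and 25.0 to 389 CPM in control libraries. With blebbistatin the granulosa marker sums all lay under, and the stroma sums all above, those of control libraries. These sums were not tested. Exact two-sided permutation tests took total count, genes detected, mitochondrial share and the mean log2(CPM + 1) of each marker list. Over 36 such tests, 4 libraries against 4, the smallest p was 0.0571 and its adjusted value 0.514. The smallest p that 4 against 4 allows is 0.0286. Without blebbistatin replicates 1 and 2, which held macrophage transcripts, the median log2 change of the members for blebbistatin was -0.59. What part the makeup of the libraries has in the members' order was not tested.

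Promoter sequences of the members are given because many of them moved together across granulosa cell libraries and because HIF is known to bind the core letters ACGTG or GCGTG. RefSeq promoters on build GRCm38.p6, which is not the build of the counts, were available for 35 of the 37 members, each 300 bases long around the annotated start. The first promoter of 21 of the 35 genes (60.0%) held ACGTG on either strand, against 19.7% of 27025 genes. The list was chosen for glycolysis and a known response to low oxygen, so a high share was built into that choice. The count therefore describes the list and is no result of these libraries. With ACGTG or GCGTG counted, 28 members (80.0%) held a match, against 43.8%. The longer CACGTG, which contains ACGTG and is bound by many other factors, stood in 5 members (14.3%) against 7.24%. The members' promoters were also richer in G and C, at a median of 65.0% against 52.7%, with a median of 24 CpG against 7, and the part of this in the motif counts was not tested. Members with the shared library order held ACGTG in 11 of 18 cases (61.1%) and the others in 10 of 17 (58.8%). The 17 include Eno2 and Egln3, which failed the filter and were not examined for that order. As the order was picked from these same data, no conclusion is drawn from the shares. The sequences below run 5′ to 3′ on the strand of the gene, with both core motifs and their reverse complements in capitals. They are the promoter of Ldha (chr7:46845554-46845853, + strand), of Ldhb (chr6:142507908-142508207, - strand), of Pgk1 (chrX:106186850-106187149, + strand) and of Bnip3 (chr7:138909457-138909756, - strand). Ldha and Ldhb are shown as the pair that differed between the cell types, and Pgk1 and Bnip3 as a glycolytic enzyme and a hypoxia target with the shared order.
Ldha: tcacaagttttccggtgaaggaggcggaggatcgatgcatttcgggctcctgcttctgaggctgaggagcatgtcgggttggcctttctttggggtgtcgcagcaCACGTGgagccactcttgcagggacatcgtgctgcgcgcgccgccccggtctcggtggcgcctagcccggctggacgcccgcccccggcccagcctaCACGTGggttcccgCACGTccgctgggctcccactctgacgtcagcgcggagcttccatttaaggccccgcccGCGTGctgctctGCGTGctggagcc
Ldhb: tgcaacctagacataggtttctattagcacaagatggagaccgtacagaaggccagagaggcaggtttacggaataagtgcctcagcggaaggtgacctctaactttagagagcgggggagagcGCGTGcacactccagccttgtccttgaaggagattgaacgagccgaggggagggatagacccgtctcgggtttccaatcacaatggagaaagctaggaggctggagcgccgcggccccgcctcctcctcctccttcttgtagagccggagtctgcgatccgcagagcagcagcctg
Pgk1: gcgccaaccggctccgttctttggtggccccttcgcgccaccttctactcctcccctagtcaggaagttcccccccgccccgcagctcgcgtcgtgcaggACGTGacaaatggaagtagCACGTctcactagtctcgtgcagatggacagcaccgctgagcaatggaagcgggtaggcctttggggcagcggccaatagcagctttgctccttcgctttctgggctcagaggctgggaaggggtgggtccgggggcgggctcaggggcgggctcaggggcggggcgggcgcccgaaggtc
Bnip3: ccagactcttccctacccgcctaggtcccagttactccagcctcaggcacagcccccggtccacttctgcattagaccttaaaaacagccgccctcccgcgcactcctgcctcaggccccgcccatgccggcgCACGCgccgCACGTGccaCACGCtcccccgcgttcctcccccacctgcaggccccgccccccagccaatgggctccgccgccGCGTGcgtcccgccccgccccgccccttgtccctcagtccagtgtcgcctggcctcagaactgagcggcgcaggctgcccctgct
Ldha held 5 matches to ACGTG and 2 to GCGTG, Ldhb 0 and 1, Pgk1 2 and 0, and Bnip3 2 and 3. The promoter of Eno1, a member with the shared order that is not printed, held 0 and 2. CACGTG reads as ACGTG on both strands and was counted once on each, so the capitals show fewer stretches than matches. A match describes letters in this window and shows no binding.

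In oocytes, too, no member passed for either treatment. For blebbistatin against control 30 members were tested and 0 were called by edgeR, DESeq2 or limma voom, with 0.0% of all genes called by edgeR. Their median log2 change was -0.13, 21 of 30 changes were negative against 51.4% of all genes, and 5 had an unadjusted p under 0.05 against 4.1%. For dextran against control 0 of 30 were called by the same tools, again with 0.0% of all genes called by edgeR. The median was -0.06, 18 changes were negative against 49.5% of all genes, and 5 had an unadjusted p under 0.05 against 5.31%. Leaving out single libraries gave 1 to 7 at that level for blebbistatin, lowest without control replicate 1 or blebbistatin replicate 2, and 2 to 7 for dextran, lowest without dextran replicate 4. No share of all genes is given for these omissions. The 7 members not tested in oocytes were Slc2a3, Hk1, Eno2, Pfkfb4, Egln3, Ndrg1 and Vegfa, which had too few counts there to pass the filter. Of these, Hk1 reached 2.45 CPM in control replicate 2, the oocyte library richest in Inha. Blebbistatin against dextran in oocytes gave 0 called members and 0 at an unadjusted p under 0.05 by edgeR, and DESeq2 and limma voom called none.

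Eno1 had 232, 178, 183 and 135 CPM in blebbistatin oocytes, 154, 172, 146 and 146 CPM in dextran oocytes and 329, 325, 176 and 175 CPM in control oocytes. Control replicates 1 and 2, the ones with most Inha, were the highest, and the dextran values all lay under the control values, as for 1.51% of all genes. The log2 change for dextran was -0.65 ± 0.20 (SE, edgeR adjusted p = 0.857), and -0.16 without the 3 oocyte libraries rich in Inha. Gapdh had 58.1, 33.6, 46.5 and 40.3 CPM in blebbistatin oocytes, 48.5, 52.9, 47.3 and 33.6 CPM in dextran oocytes and 59.6, 126, 52.2 and 50.8 CPM in control oocytes. Its log2 change was -0.69 ± 0.26 for blebbistatin (edgeR adjusted p = 1.0) and -0.62 ± 0.26 for dextran (edgeR adjusted p = 0.896), and -0.36 and -0.15 without those 3 libraries. The largest value for dextran, -4.39 ± 1.52 for Ldha (edgeR adjusted p = 0.878), was -1.66 without them. Without those libraries the median over the members was 0.06 for blebbistatin and 0.02 for dextran.

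Tpi1, triose phosphate isomerase, was the member whose oocyte groups did not overlap for blebbistatin, with 93.2, 117, 117 and 104 CPM against 138, 118, 137 and 137 CPM in control oocytes. Of all genes 1.46% were non-overlapping in that direction. Its log2 change was -0.29 ± 0.11 (SE, edgeR adjusted p = 1.0), and -0.28 without the libraries rich in Inha. Ero1a had 2.11, 0.550, 2.72 and 3.96 CPM in blebbistatin oocytes and 4.62, 7.72, 3.51 and 4.26 CPM in control oocytes, groups that overlapped (-1.10 ± 0.49, edgeR adjusted p = 1.0). Gpi1, phosphoglucose isomerase, had 82.4, 80.9, 63.1 and 55.0 CPM in dextran oocytes and 88.4, 109, 86.3 and 91.2 CPM in control oocytes. No dextran value reached the control range, and the log2 change was -0.37 ± 0.14 (edgeR adjusted p = 0.878).

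**Figure D5:**
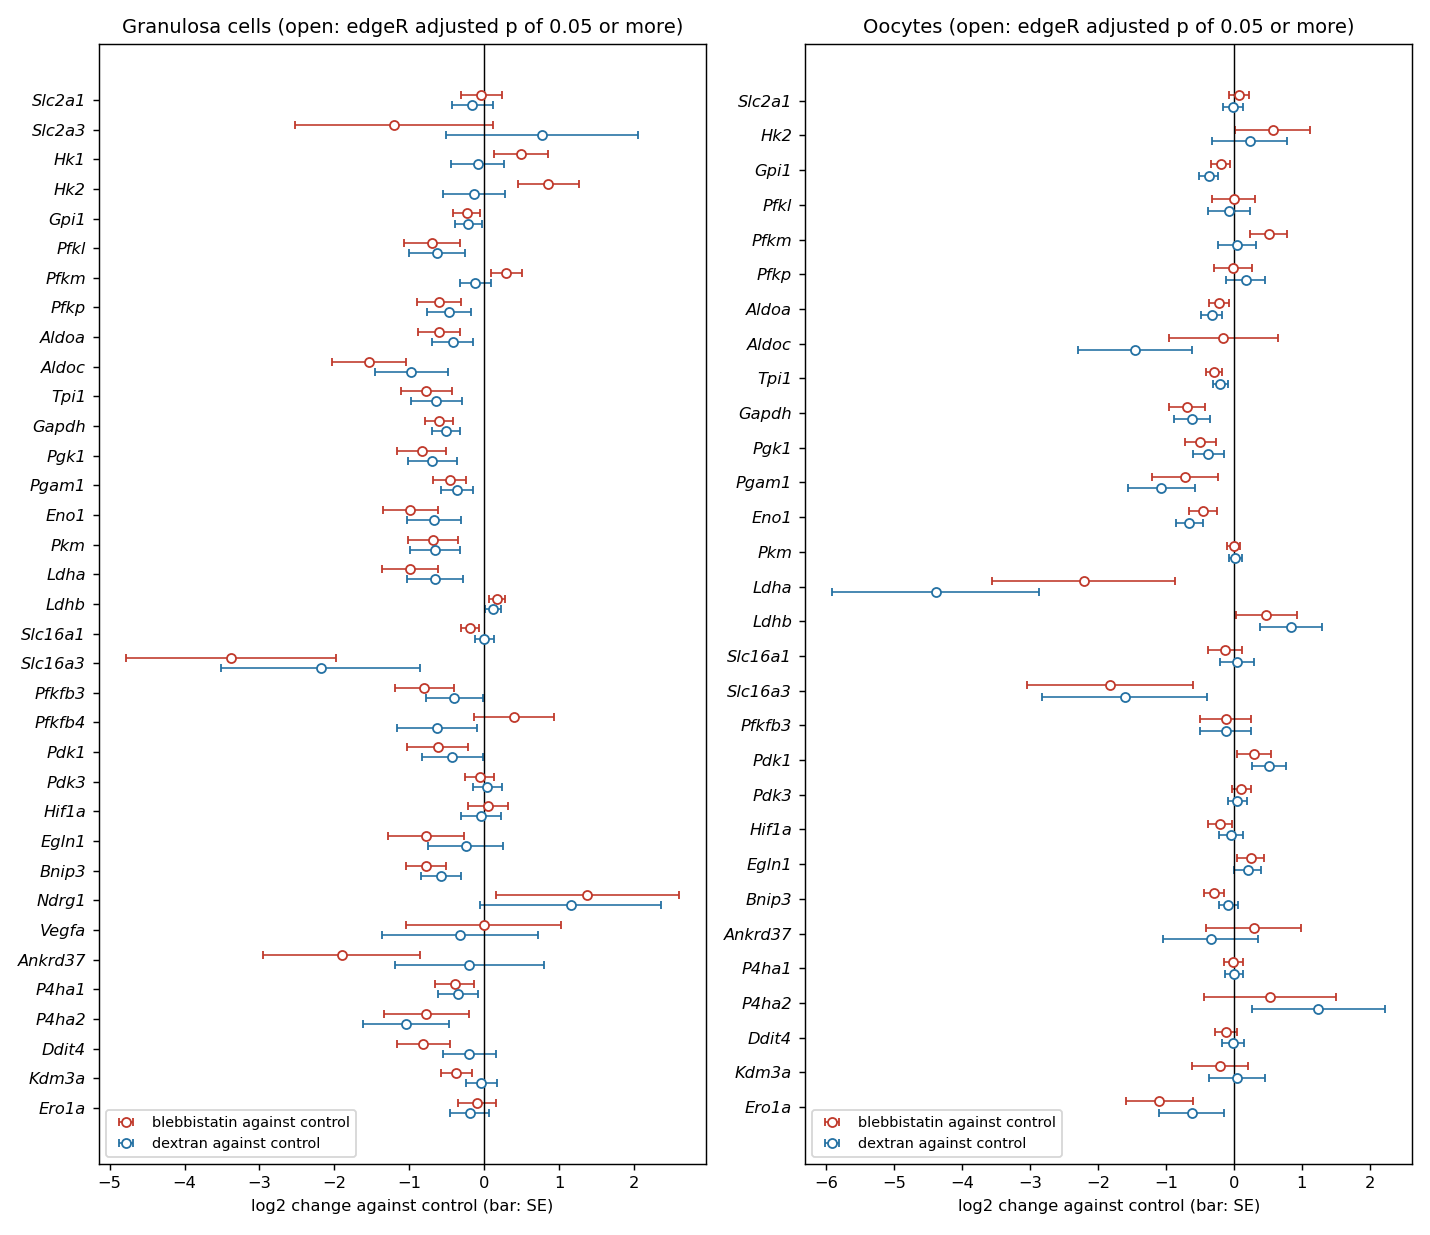
Log2 change of the tested members for blebbistatin (above, red) and dextran (below, blue) against control in granulosa cells and in oocytes, with SE. Every symbol is open because no adjusted p was under 0.05, and most granulosa cell values lie left of 0.

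The difference between cell types in the response to a treatment was examined with an interaction term in the fit of all 24 libraries. Of 35 members 0 were called for blebbistatin, against 0.0485% of 20601 genes, and 0 for dextran, against 0.0%, and DESeq2 and limma voom called no member either. One member had an unadjusted p under 0.05 by edgeR in each, Hk1 for blebbistatin (-3.42) and Ldha for dextran (-3.88). In oocytes Hk1 had 2.45 CPM in control replicate 2, the library richest in Inha, and 0 to 0.421 CPM in all others. Ldha moved with Inha in oocytes, so neither value rests on well measured oocyte levels.

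A further 79 genes of glucose use and the HIF pathway placed the members in their setting. None was called for a treatment in either cell type by edgeR. In granulosa cells 12 of 65 had an unadjusted p under 0.05 for blebbistatin and 2 for dextran, against 10.4% and 3.4% of all genes, and in oocytes 0 of 61 and 4, against 4.1% and 5.31%. Fbp1, the fructose-1,6-bisphosphatase that reverses phosphofructokinase, had the log2 change -1.21 ± 0.34 for blebbistatin in granulosa cells (SE, edgeR adjusted p = 0.237). Between control oocytes and control granulosa cells 48 of 71 passed, 28 lower and 20 higher in oocytes, against 77.3%, 32.9% and 44.4% of all genes. Some of the 71 failed the filter within 1 cell type, where only 65 or 61 were tested, and passed through the other. Their direction was fixed by the filter, so these counts are a description only.

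The genes named next were chosen after their values were seen, and some were higher in oocytes. G6pdx, which opens the pentose phosphate pathway, had 438 to 701 CPM in oocytes and 71.0 to 179 CPM in granulosa cells (log2 change in control follicles 3.23 ± 0.22, SE). Fbp1 had 85.2 to 123 CPM in oocytes and 3.39 to 16.2 CPM in granulosa cells (3.45 ± 0.20), and Tigar, a phosphatase that lowers fructose-2,6-bisphosphate, changed by 3.36 ± 0.25. Fbp2 had 27.0 to 39.4 CPM in oocytes and was at 0 in 11 of 12 granulosa cell libraries, and Ldhc, the germ-cell lactate dehydrogenase, had 5.86 to 21.6 CPM in oocytes and was at 0 in all 12 granulosa cell libraries. Fbp2 and Ldhc were thus read almost entirely in oocytes and passed the filter through them, so their direction was fixed by the filter. Fbp1 was read in both cell types. The subunits of pyruvate dehydrogenase differed in direction. Pdhx, a structural part, changed by 2.67 ± 0.13 and Pdha1 by 0.91 ± 0.22, while Pdhb changed by -1.16 ± 0.12 and Dlat had a log2 change of -0.34 ± 0.17 that did not pass (edgeR adjusted p = 0.0685).

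Later steps of the pentose phosphate pathway differed among themselves. Tkt, transketolase, had 37.2 to 85.1 CPM in oocytes and 366 to 522 CPM in granulosa cells (-2.26 ± 0.20, SE), and Pgls and Pgd had log2 changes of -2.57 and -1.55. Rpe, ribulose-phosphate epimerase, was higher in oocytes (1.03 ± 0.22), and Taldo1, transaldolase, did not pass (0.08 ± 0.12, edgeR adjusted p = 0.55). In the HIF pathway, Epas1, which encodes HIF-2 alpha, had 0 to 15.2 CPM in oocytes and 101 to 211 CPM in granulosa cells (-4.52 ± 0.94), and Vhl, which targets hydroxylated HIF alpha for destruction, had 0.129 to 5.12 CPM in oocytes and 27.6 to 51.9 CPM in granulosa cells. Arnt, the constant partner of HIF alpha subunits, overlapped, with 31.5 to 55.7 CPM in oocytes and 37.7 to 56.0 CPM in granulosa cells (0.26 ± 0.18, edgeR adjusted p = 0.20). Car9, a carbonic anhydrase known as a marker of hypoxia in tumours, was higher in oocytes, with 128 to 205 CPM against 0 to 2.14 CPM in granulosa cells.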

How the data were processed

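Oocytes and granulosa cells were compared over 24 libraries. The authors deposited estimated counts from salmon (per the labels), 1 table for each cell type and 2 tables in all, each with 78298 genes. The submitters' processing notes name the build GRCm39. For aligner, annotation and strandedness the sources used here give nothing. Of the sample columns, 0 were left unused.

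Estimated counts were rounded, filtered with filterByExpr, scaled by TMM and tested by the quasi-likelihood method of edgeR 4.0.16 (robust glmQLFit and glmQLFTest, R 4.3.3). Each cell type was fitted over its 12 libraries, 15370 genes in granulosa cells and 16749 in oocytes, and cell types were compared over all 24 and 20601 genes. Benjamini-Hochberg adjustment covered all genes of a fit, with a threshold of 0.05. CPM in the text are relative to the unscaled library total. Library depth was 14244103 to 22431013 counts. Steps were tested on simulated data. DESeq2 1.42.0, limma voom 3.58.1, other scaling, no filter, a replicate block, added retrocopy counts, fewer groups and omission of each library were alternatives. A further 2 alternatives, without libraries rich in macrophage or granulosa cell transcripts, were chosen after seeing the data.

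Members and lists were chosen with earlier results of these data known. Values per library are given for the 4 members of smallest unadjusted p per treatment comparison, the 6 per direction of smallest adjusted p between cell types, and 12 fixed members, shortened to ranges for some. Kdm3a, Slc16a3, P4ha1, Pgam1 and the related genes with values were chosen after their values were seen. No 2 libraries of a group agreed within sampling noise (smallest chi-square 12.4 per gene).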

Additional observations from a re-analysis of the deposited data

Results flagged for a closer look

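In each group of 4 libraries a member's highest or lowest value was compared with the nearest of the others on the log2(CPM + 1) scale. In 12 of 195 groups that gap took a larger share of the whole range than Dixon's critical value allows, and chance gives about 1 in 20. In granulosa cells Egln1 read 1.96 CPM in blebbistatin replicate 1, Slc2a1 read 63.3 CPM there and Pkm 1464 CPM in blebbistatin replicate 2. Hk2 read 20.7 CPM in dextran replicate 3 and 18.9 CPM in control replicate 4. Vegfa read 0.213 CPM in dextran replicate 4 and Ldhb 705 CPM in control replicate 2. In oocytes Ldhb read 3209 CPM and Aldoc 0 CPM in dextran replicate 3, and Pfkm read 14.3 CPM in blebbistatin replicate 3. Kdm3a read 15.2 CPM and Tpi1 118 CPM in control replicate 2, the oocyte library with most Inha. Egln1, Slc2a1 and Pkm thus stood apart in granulosa cell libraries with macrophage transcripts, and whether these carry the difference was not tested. Blebbistatin replicate 1 of the granulosa cells also had the fewest genes detected, 14538, and the part of this was not tested either.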

How the results depend on the processing

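No called value changed direction: of 1550 values under alternatives 42 lost a call and 6 medians moved beyond the spread. A further 10 medians of members that had no call turned sign, among them those in oocytes without the libraries with granulosa cell transcripts, which became 0.06 for blebbistatin and 0.02 for dextran. The count of called members was 0 under every alternative for the 6 treatment comparisons within a cell type and for both interactions, and between the cell types it was 27 to 31 with blebbistatin, 27 to 32 with dextran and 28 to 32 in control follicles. The lost calls were those of Ldhb (17), Pdk3 (22) and Vegfa (3) between control oocytes and control granulosa cells, and the cause was not tested. Ldhb had the log2 change 0.49 with library totals only (edgeR adjusted p = 0.171), 0.77 without the filter (edgeR adjusted p = 0.0778) and 0.74 without the libraries with macrophage transcripts (edgeR adjusted p = 0.0608).

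Same-numbered libraries did not deviate together as a rule: correlations were -0.20 to 0.25 in granulosa cells, with 2 of 12 over 0.1, the largest for replicate 1 of dextran and control, and -0.12 to 0.16 in oocytes, with 3 of 12. The count of calls was little moved by the block: with the replicate number as a block, 0 members were called in the 6 treatment comparisons and 29, 31 and 32 between cell types in blebbistatin, dextran and control follicles. Retrocopies named for 9 members, 25 in all, left 31 calls in control follicles when added and gave 29 with blebbistatin and 29 with dextran. The call of Pdk3 was then lost (0.31, edgeR adjusted p = 0.136), so the members called were not all the same. Eno1b came to 0.90% of Eno1 counts. Depth limits Slc2a3, Ndrg1, Ankrd37, Vegfa, Eno2 and Egln3, which lie near the floor.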
